A study of Homo sapiens with 12 samples.

Results

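Glycolysis and hypoxia response genes were followed through RNA-seq of TYK-nu cells, an established human ovarian cancer line labelled as high-grade serous. Several markers of serous carcinoma had 0 counts in every library. The set was a list of 43 gene symbols, and a gene entered when its symbol had an entry in the deposited count table, which holds 17508 genes. It comprised 15 glycolytic enzymes, 6 genes of lactate dehydrogenase and of glucose and lactate transport, 5 regulators of glycolytic flux, HIF1A with 2 of its hydroxylases, and 14 hypoxia response targets. Of these, 40 were in the table. SLC16A1, SLC16A3 and P4HA1 were not analysed here. The cells had been given either cisplatin at 15 µM or the solvent DMSO, and were collected after 24 h or 72 h. The 4 groups (DMSO 24 h, cisplatin 24 h, DMSO 72 h and cisplatin 72 h) held 3 libraries each, all from the same line without genetic change, and no low-oxygen treatment was described for any of them. Messenger RNA selected by its poly(A) tail was sequenced, and fragments were counted separately over the exons and over the introns of each gene.

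Glycolysis breaks glucose down to pyruvate, which lactate dehydrogenase turns into lactate when pyruvate does not enter the mitochondria. The hypoxia inducible factor (HIF) is a transcription factor whose alpha subunit, encoded by HIF1A, is marked for destruction by the EGLN prolyl hydroxylases while oxygen is present. When oxygen falls the subunit accumulates and the factor binds short DNA elements beside its targets, among them most glycolytic enzyme genes, glucose transporters, and genes of blood vessel growth, acid balance and mitochondrial turnover. Tumour cells often run glycolysis at a high rate with oxygen present, and cisplatin, a platinum drug that forms DNA adducts, is a standard treatment of serous ovarian cancer.

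Library totals were between 18526830 and 68753262 fragments, of which 6.26% to 7.17% were intronic. Values are given as CPM, which scales a gene's counts to the exon (or intron) total of its library with factors from the trimmed mean of M values (TMM). No pair of libraries held identical exon counts. The study's methods describe triplicates of cells grown with each agent. Whether they were set up on separate days is not given, and the p-values measure the spread between these libraries. Of 10 serous carcinoma markers in the table, 5 stayed under 1 CPM in every library, namely SOX17, CDH6 and FOLR1 with 0 counts throughout, PAX8 with 0 to 2 and KRT7 with 0 to 8 counts per library, while KRT18 was at 173 ± 8.46 CPM and MECOM at 123 ± 6.01 CPM (SD, n = 3, DMSO 24 h). Fibroblast markers (5 with an exon entry) stayed under 1 CPM, with LUM and COL3A1 at 0. Among 7 leukocyte and endothelial markers PTPRC was at 0, but PECAM1 stood at 2451 ± 56.2 CPM, CDH5 at 1009 ± 33.2 CPM and CD68 at 355 ± 29.0 CPM (SD, n = 3, DMSO 24 h), so 3 genes of that list were high in every library of the line. Its summed level went from 3816 CPM in DMSO 24 h and 3794 CPM in cisplatin 24 h to 2701 CPM in DMSO 72 h and 2839 CPM in cisplatin 72 h, although CD68, a gene of that list, went up, to 629 ± 16.7 CPM in DMSO 72 h and from 366 ± 20.7 to 624 ± 32.8 CPM in cisplatin. The serous list went from 312 and 306 CPM at 24 h to 280 and 299 CPM at 72 h, but its genes did not move together. KRT18 fell, from 173 to 134.1 CPM in DMSO and from 175 to 144.9 CPM in cisplatin, and WT1 fell in both. KRT8 rose, from 13.14 to 32.35 CPM in DMSO and from 12.01 to 32 CPM in cisplatin, and EPCAM rose in both. MECOM went from 122.7 to 110.1 CPM in DMSO and from 115.6 to 118 CPM in cisplatin. The part of these lists in the results over time was not tested. In bulk RNA, fewer cells of a type and less RNA per cell cannot be told apart.

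Exon CPM divided by the gene's total exon length in kilobases was used to compare levels between genes. In DMSO 24 h glycolytic enzymes stood highest. GAPDH, which oxidises glyceraldehyde phosphate, was at 1940 ± 137 CPM per kb, ENO1 (enolase) at 574 ± 17.03, ALDOA (aldolase) at 485 ± 32.0 and TPI1 (triose phosphate isomerase) at 409 ± 15.6 CPM per kb (SD, n = 3). LDHB, the lactate dehydrogenase subunit typical of oxidative tissue, followed at 338 ± 21.4 CPM per kb. PGK1 at 222 ± 6.21 and PKM at 214 ± 4.15 CPM per kb, the ATP-forming kinases, came next and differed by less than the sum of their SDs. The order depended on the length used, since the bases counted are not known. Per kb of the longest transcript, PKM was at 609 and PGK1 at 251 CPM per kb, and LDHB at 655 CPM per kb stood above TPI1 at 626. LDHA, the subunit usually raised by HIF, was at 31.0 ± 0.494 CPM per kb, and GPI at 31.5 ± 1.46. These exon levels leave out the fragments counted in introns, whose share differed between genes. Exon counts were 1.58 to 1.81 times intron counts for LDHA over the 12 libraries, 0.493 to 0.702 times for VEGFA and 28.03 to 46.1 times for GPI, so levels of all fragments of each gene need not follow the order of the exon levels. The hypoxia targets were spread widely, from DDIT4 at 80.9 ± 5.65 CPM per kb and ADM at 29.5 ± 1.84 to VEGFA at 0.398, BNIP3 at 0.382, MXI1 at 0.238 and P4HA2 at 0.220 CPM per kb.

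Some classical hypoxia genes had no or almost no counts. EGLN3, an oxygen-sensing hydroxylase that HIF itself induces, and the carbonic anhydrases CA9 and CA12 had 0 exon counts in each of the 12 libraries, and NDRG1 had 1 count in 1 library. A count of 0 allows up to 0.00787 CPM over the 12 libraries together, and between 0.0469 and 0.173 CPM in a single library, for counting error only. A low count in this table need not mean low expression, since DLD, a pyruvate dehydrogenase subunit that cells in general use (named here after its values were seen), had 0 to 3 exon counts per library while its partner DLAT was at 205 ± 9.09 CPM (SD, n = 3, DMSO 24 h). Whether the counting left out reads of these genes was not tested. EGLN3, CA9, CA12 and NDRG1 were left out of the main comparisons, and 36 of the 40 members passed the minimum count filter for exons.

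The promoters of 2 members that were higher at 72 h (DDIT4 and MXI1) and 2 that were lower (LDHA and PGK1) are printed because these members carried the change over time described below and because the core of the HIF element can be read in each. The 250 bases before the annotated start are given 5′ to 3′ on the gene's own strand, from RefSeq on GRCh38.p14, with the letters ACGTG and GCGTG, or their complement on the other strand, in capitals. All 4 genes lie on the plus strand. DDIT4, chr10:72273674-72273923, held ACGTG 1 time and GCGTG 2 times. MXI1, chr10:110209981-110210230, held each of them 1 time at 1 of its 3 listed starts. LDHA, chr11:18394313-18394562, held ACGTG 5 times at 1 of its 2 listed starts, with CACGTG counted once on each strand. PGK1, chrX:78103998-78104247, held ACGTG 2 times and GCGTG 1 time.
DDIT4: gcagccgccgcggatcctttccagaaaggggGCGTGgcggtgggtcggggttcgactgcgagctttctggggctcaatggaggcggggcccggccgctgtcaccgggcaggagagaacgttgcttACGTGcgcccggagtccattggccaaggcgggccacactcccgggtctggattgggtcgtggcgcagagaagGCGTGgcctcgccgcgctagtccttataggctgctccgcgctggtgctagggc
MXI1: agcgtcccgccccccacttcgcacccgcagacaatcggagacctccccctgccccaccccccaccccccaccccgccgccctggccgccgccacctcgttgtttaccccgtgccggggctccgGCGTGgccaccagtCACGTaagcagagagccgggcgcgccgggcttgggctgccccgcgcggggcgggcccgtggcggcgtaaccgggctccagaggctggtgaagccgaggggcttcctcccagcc
LDHA: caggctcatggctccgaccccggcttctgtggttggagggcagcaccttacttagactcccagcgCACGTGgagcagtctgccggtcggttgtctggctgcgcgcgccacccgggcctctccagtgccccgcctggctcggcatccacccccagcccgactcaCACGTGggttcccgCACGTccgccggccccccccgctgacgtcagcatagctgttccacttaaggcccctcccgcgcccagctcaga
PGK1: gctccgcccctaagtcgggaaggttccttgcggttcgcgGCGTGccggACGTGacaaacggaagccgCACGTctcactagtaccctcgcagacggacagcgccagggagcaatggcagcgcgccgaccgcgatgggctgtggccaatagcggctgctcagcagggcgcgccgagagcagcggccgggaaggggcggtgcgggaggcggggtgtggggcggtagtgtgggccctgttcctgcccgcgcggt

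A gene was counted once when any of its listed starts held the letters. Among the 36 members with a promoter entry, 22 (61.1%) held ACGTG, 21 (58.3%) held GCGTG and 30 (83.3%) held either, against 21.7%, 36.2% and 47.4% of the promoters of all 27305 genes with one and 29.1%, 54.3% and 65.9% of those of 8504 genes that were tested on exon counts. Members of both directions of change held the letters. Of 9 members with a promoter that were higher at 72 h in both treatments 6 held ACGTG, 4 GCGTG and 8 either, and of 14 that were lower 9 held ACGTG, 8 GCGTG and 10 either. A match is a description of these letters and not evidence of binding. SLC2A3, VEGFA, NDRG1 and BNIP3L had no promoter entry.

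The first comparison asked how the genes differed between 24 h and 72 h of culture, in DMSO and separately in cisplatin. Most members changed. More glycolytic enzymes were called lower than higher at 72 h, and both glucose transporters and 6 of the 10 tested hypoxia targets were called higher. The difference between these roles was not tested. In DMSO 29 of the 36 tested members passed an adjusted p of 0.05 (edgeR quasi-likelihood test, Benjamini-Hochberg adjustment over 10444 genes), 12 higher and 17 lower, against 65.1% of all genes tested (32.6% higher and 32.5% lower). In cisplatin 27 passed, 12 higher and 15 lower, against 63.5% of all genes (32% higher and 31.5% lower). The members called were thus 80.6% of those tested in DMSO and 75% in cisplatin, a larger share than over all genes in each, and that difference was not tested. The median log2 change of the tested members was -0.13 in DMSO and -0.08 in cisplatin, beside 0.01 and 0.02 over all genes.

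By role, 2 of the 15 glycolytic enzymes were higher and 10 lower at 72 h in DMSO (median log2 change -0.31), and 2 were higher and 9 lower in cisplatin (median -0.26). Of the 4 lactate dehydrogenase and glucose transport genes, both transporters were higher and both dehydrogenase subunits lower in each treatment. Of 5 regulators of flux, 1 was higher and 2 were lower in each treatment. Of 10 tested hypoxia targets, 6 were higher and 2 lower in each treatment, with a median log2 change of 0.30 in DMSO and 0.26 in cisplatin. Summed over their members, glycolytic enzymes went from 1.55% to 1.38% of exon counts between 24 h and 72 h in DMSO and from 1.57% to 1.39% in cisplatin, while hypoxia targets went from 0.0727% to 0.112% and from 0.0734% to 0.110%. Most of the latter increase was in DDIT4, and the other 12 hypoxia targets summed to 0.0557% at 24 h and 0.0646% at 72 h in DMSO and to 0.0560% and 0.0655% in cisplatin. Most of that smaller increase was in turn in BNIP3L, which went from 230 to 308 CPM in DMSO and from 224 to 316 CPM in cisplatin. ERO1A went the other way, from 130 to 101 CPM and from 134 to 106 CPM.

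The DMSO and cisplatin comparisons over time share no library. Of the 36 tested members, 26 were called in both, 12 higher and 14 lower, and 35 had the same sign in both, ADM being the exception. The share of all genes called in both was not counted, so the 26 cannot be read as particular to the members. Of all genes tested, 65.1% were called in DMSO and 63.5% in cisplatin. Over all genes tested 89.4% had the same sign. Pearson's r between the changes over time in the 2 treatments was 0.96 across the members and 0.905 across all genes, a description across genes, which are not independent replicates. HIF1A, HK1 and PFKFB3 were called in DMSO alone and PGM1 in cisplatin alone, and the difference between the treatments, tested as an interaction, was called for none of them. ADM, ALDOA, ALDOC, BNIP3, PDK1 and PFKL were called in neither.

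**Figure D1:**
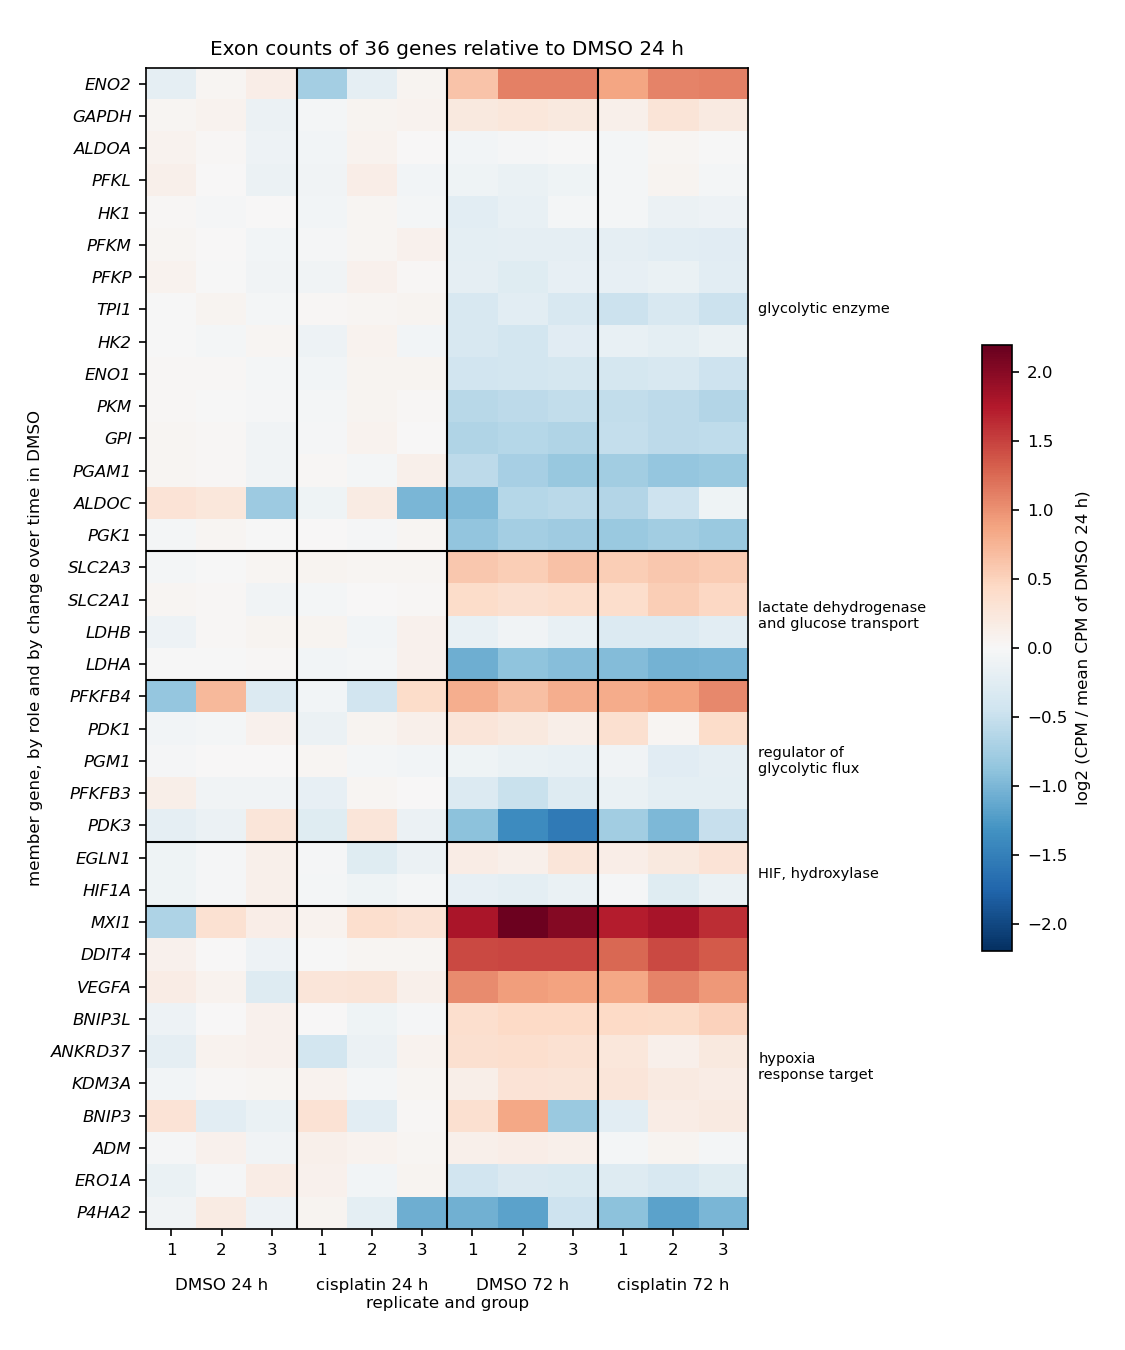
Colour gives the log2 ratio of each library's exon CPM to the mean of DMSO 24 h for the 36 tested members, with genes in rows by role and the 12 libraries in columns by group and replicate. The columns at 72 h differ from those at 24 h in both treatments, with MXI1, DDIT4, VEGFA and ENO2 red and LDHA, PGK1, PGAM1, GPI and PKM blue, while the DMSO and cisplatin columns of one time look alike.

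Among the members called, the 5 largest rises in DMSO were those of MXI1, DDIT4, ENO2, VEGFA and PFKFB4, and the same 5 led in cisplatin. MXI1, on chromosome 10 (110207605 to 110287365, GRCh38), encodes a repressor that competes with MYC for its partner. MXI1 exon counts were 0.883, 1.78 and 1.56 CPM in the DMSO libraries at 24 h and 4.88, 6.30 and 5.74 CPM at 72 h. In cisplatin MXI1 was at 1.49, 1.82 and 1.75 CPM at 24 h and 4.68, 4.93 and 4.33 CPM at 72 h. Every library at 72 h lay above every library at 24 h. The rise was 4.01-fold in DMSO (log2 change 2.00 ± 0.20 SE, edgeR adjusted p = 6.88e-09) and 2.75-fold in cisplatin (1.46 ± 0.20, adjusted p = 6.35e-07), from 23 to 316 raw counts per library. DDIT4 (chromosome 10, 72273919 to 72276036), an inhibitor of mTOR signalling that hypoxia and other stresses induce, had far more counts. In DMSO its values were 182, 173 and 159 CPM at 24 h and 469, 477 and 472 CPM at 72 h, and in cisplatin 170, 176 and 177 CPM at 24 h and 413, 470 and 438 CPM at 72 h. The times did not overlap in either treatment. DDIT4 rose 2.76-fold in DMSO (log2 change 1.46 ± 0.06 SE, edgeR adjusted p = 2.34e-16) and 2.52-fold in cisplatin (1.34 ± 0.06, adjusted p = 1.67e-15).

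ENO2, the enolase isoenzyme of neurons (chromosome 12, 6913745 to 6923698), was the one glycolytic enzyme besides GAPDH to rise. ENO2 was at 2.42, 2.86 and 3.07 CPM in DMSO at 24 h and 4.28, 6.03 and 6.03 CPM at 72 h. In cisplatin its libraries held 1.66, 2.43 and 2.92 CPM at 24 h and 5.11, 5.93 and 5.97 CPM at 72 h. The 24 h and 72 h libraries did not overlap, and the rise was 1.98-fold in DMSO (log2 change 0.99 ± 0.18 SE, edgeR adjusted p = 5.13e-05) and 2.45-fold in cisplatin (1.29 ± 0.18, adjusted p = 1.61e-06). VEGFA (chromosome 6, 43770184 to 43786487) encodes the vascular endothelial growth factor and is among the best known HIF targets. VEGFA exon counts stood at 6.41, 6.07 and 4.74 CPM in DMSO at 24 h against 11.9, 10.9 and 10.6 CPM at 72 h. With cisplatin they stood at 6.91, 6.98 and 6.19 CPM and then 10.3, 12.2 and 11.1 CPM. Again no 72 h library reached down to the 24 h range. VEGFA rose 1.91-fold in DMSO (log2 change 0.93 ± 0.12 SE, edgeR adjusted p = 3.26e-07) and 1.67-fold in cisplatin (0.74 ± 0.12, adjusted p = 6.06e-06).

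PFKFB4, a kinase and phosphatase that sets the activator of phosphofructokinase (chromosome 3, 48517684 to 48562015), had 21 to 172 raw counts per library and was less certain. PFKFB4 measured 0.806, 2.37 and 1.19 CPM in DMSO at 24 h and 2.54, 2.31 and 2.54 CPM at 72 h, so DMSO 24 h replicate 2 lay within the 72 h range. In cisplatin it measured 1.399, 1.09 and 1.93 CPM at 24 h and 2.55, 2.68 and 3.02 CPM at 72 h, without overlap. The change was 1.65-fold in DMSO (log2 change 0.72 ± 0.28 SE, edgeR adjusted p = 0.0259) and 1.94-fold in cisplatin (0.96 ± 0.27, adjusted p = 0.00363). The DMSO call was lost without DMSO 24 h replicate 1 (0.41, adjusted p = 0.193), DMSO 24 h replicate 3 (0.61, 0.0817), DMSO 72 h replicate 1 (0.70, 0.0537) or DMSO 72 h replicate 3 (0.70, 0.0647), and the log2 change was 1.34 without DMSO 24 h replicate 2.

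**Figure D2:**
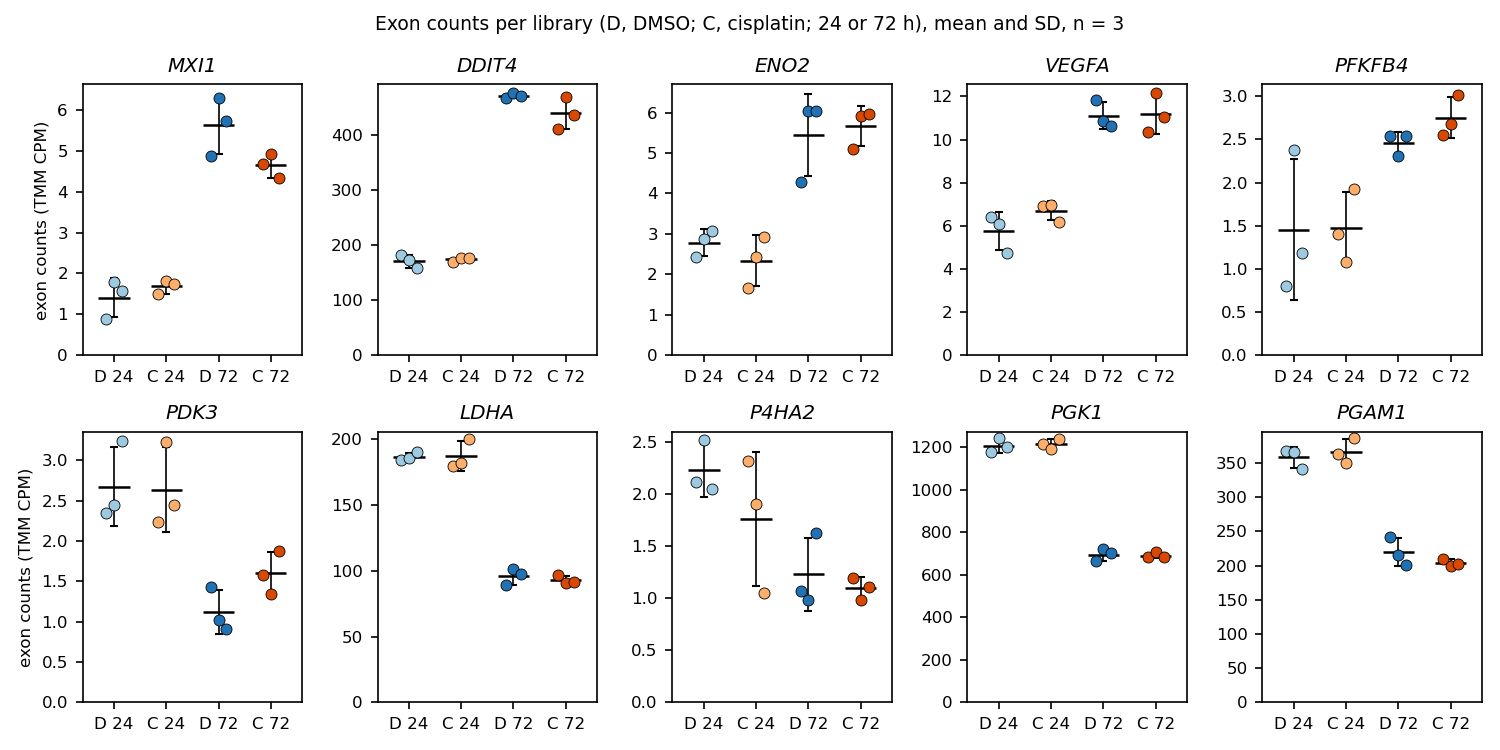
Exon counts in TMM-scaled CPM (each vertical axis starts at 0) are plotted for every library of the 5 members with the largest called rises and the 5 with the largest called falls over time. Points are libraries and bars are the mean and SD of 3 in DMSO 24 h, cisplatin 24 h, DMSO 72 h and cisplatin 72 h. The DMSO and cisplatin points of one time overlap or lie close, and DDIT4, VEGFA, LDHA, PGK1 and PGAM1 show a gap between 24 h and 72 h in both treatments.

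Among the members called, the 5 largest falls in DMSO were those of PDK3, LDHA, P4HA2, PGK1 and PGAM1, and these were also the 5 largest in cisplatin. ALDOC, with 4 to 22 raw counts per library, had a log2 change of -0.75 ± 0.47 SE in DMSO and was not called (edgeR adjusted p = 0.167). LDHA, which reduces pyruvate to lactate (chromosome 11, 18394560 to 18408425), fell in both treatments. LDHA was at 184, 185 and 190 CPM in DMSO at 24 h and 88.9, 101 and 97.6 CPM at 72 h. In cisplatin it was at 179, 182 and 200 CPM at 24 h and 96.4, 90.6 and 91.7 CPM at 72 h. Every 72 h library lay below every 24 h library, and LDHA was 1.94-fold lower in DMSO (log2 change -0.96 ± 0.06 SE, edgeR adjusted p = 7.45e-13) and 2.01-fold lower in cisplatin (-1.01 ± 0.06, adjusted p = 3.39e-13). PGK1 (chromosome X, 77910739 to 78129295), the first ATP-forming enzyme of the pathway, went from 1178, 1244 and 1201 CPM to 665, 722 and 701 CPM in DMSO. With cisplatin PGK1 went from 1216, 1190 and 1239 CPM to 683, 706 and 683 CPM. The times were far apart in both treatments, with PGK1 1.74-fold lower in DMSO (log2 change -0.80 ± 0.05 SE, edgeR adjusted p = 3.39e-13) and 1.76-fold lower in cisplatin (-0.81 ± 0.05, adjusted p = 2.68e-13). PGAM1 (chromosome 10, 97426191 to 97433444), the next enzyme, went from 367, 367 and 341 CPM to 241, 216 and 201 CPM in DMSO. In the cisplatin libraries PGAM1 fell from 363, 349 and 386 CPM to 210.0, 199 and 203 CPM. Its fall was 1.63-fold in DMSO (log2 change -0.71 ± 0.06 SE, edgeR adjusted p = 2.76e-10) and 1.79-fold in cisplatin (-0.84 ± 0.06, adjusted p = 1.41e-11), without overlap of the times.

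PDK3 and P4HA2 had few counts, with 27 to 110 raw counts per library for PDK3 and 18 to 72 for P4HA2. PDK3 (chromosome X, 24465244 to 24550466) is a kinase that inactivates pyruvate dehydrogenase and so keeps pyruvate out of the mitochondria. It measured 2.34, 2.44 and 3.23 CPM in DMSO at 24 h and 1.43, 1.02 and 0.909 CPM at 72 h, and in cisplatin 2.23, 3.23 and 2.45 CPM at 24 h and 1.58, 1.34 and 1.88 CPM at 72 h. The times did not overlap, and PDK3 was 2.40-fold lower in DMSO (log2 change -1.26 ± 0.25 SE, edgeR adjusted p = 9.87e-05) and 1.71-fold lower in cisplatin (-0.78 ± 0.22, adjusted p = 0.00408). Without cisplatin 24 h replicate 2 the fall of PDK3 in cisplatin was -0.57 with an adjusted p of 0.0631. P4HA2 (chromosome 5, 132190147 to 132295315), a subunit of the enzyme that hydroxylates collagen, measured 2.11, 2.51 and 2.05 CPM in DMSO at 24 h and 1.07, 0.986 and 1.63 CPM at 72 h. With cisplatin P4HA2 measured 2.32, 1.91 and 1.05 CPM at 24 h and 1.19, 0.983 and 1.11 CPM at 72 h, so that cisplatin 24 h replicate 3 lay within the 72 h range. P4HA2 was 1.77-fold lower in DMSO (log2 change -0.82 ± 0.26 SE, edgeR adjusted p = 0.00905) and 1.66-fold lower in cisplatin (-0.73 ± 0.27, adjusted p = 0.0191). The cisplatin call of P4HA2 was lost without cisplatin 24 h replicate 1 (-0.53, adjusted p = 0.132), cisplatin 24 h replicate 2 (-0.68, 0.0702) or cisplatin 72 h replicate 2 (-0.64, 0.0752).

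The other members changed less. Both glucose transporters rose, SLC2A3 with a log2 change of 0.59 in DMSO and 0.51 in cisplatin and SLC2A1 with 0.38 and 0.47. BNIP3L, a mitophagy receptor, rose by 0.42 and 0.49, and KDM3A, a histone demethylase, by 0.24 and 0.19 on the log2 scale. GAPDH, at 4647 ± 328 CPM in DMSO 24 h and 5434 ± 59.6 CPM in DMSO 72 h (SD, n = 3), rose by 0.23 in DMSO and 0.17 in cisplatin, against the fall of the enzymes on either side of it. GPI had log2 changes of -0.65 and -0.58, PKM -0.57 and -0.60, ENO1 -0.40 and -0.42, TPI1 -0.31 and -0.47 and ERO1A, an oxidase of the endoplasmic reticulum, -0.36 and -0.34. The phosphofructokinases PFKP (-0.21 and -0.20) and PFKM (-0.20 and -0.26) fell slightly, while PFKL (-0.11 and -0.02) and ALDOA (-0.03 and -0.02) passed the test in neither treatment. HIF1A itself was at 145 ± 10.96 CPM in DMSO 24 h and 128 ± 3.15 CPM in DMSO 72 h (log2 change -0.17 ± 0.06 SE, edgeR adjusted p = 0.0173), and its change in cisplatin was -0.08 (adjusted p = 0.268). EGLN1, the main hydroxylase of HIF in most cells, rose by 0.19 in DMSO (adjusted p = 0.0189) and 0.36 in cisplatin (adjusted p = 5.97e-05).

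Several of the small changes rested on single libraries. In DMSO, ANKRD37 did not pass without DMSO 24 h replicate 1 (edgeR adjusted p = 0.157), DMSO 72 h replicate 1 (0.0590), DMSO 72 h replicate 2 (0.0674) or DMSO 72 h replicate 3 (0.0609). EGLN1 in DMSO did not pass without DMSO 24 h replicate 1 (0.0984), DMSO 24 h replicate 2 (0.0622) or DMSO 72 h replicate 3 (0.107). HIF1A did not pass without DMSO 24 h replicate 3 (log2 change -0.11, adjusted p = 0.119) or DMSO 72 h replicate 2 (0.0568), and HK1 did not pass without DMSO 24 h replicate 1 (0.0542), DMSO 72 h replicate 1 (0.151) or DMSO 72 h replicate 2 (0.0578). LDHB in DMSO did not pass without DMSO 24 h replicate 2 (0.0996), DMSO 24 h replicate 3 (0.126), DMSO 72 h replicate 1 (0.0819) or DMSO 72 h replicate 3 (0.0884). In cisplatin, ANKRD37 passed without cisplatin 24 h replicate 3 and failed without each of the other 5 libraries, with adjusted p from 0.0507 to 0.211. GAPDH did not pass there without cisplatin 24 h replicate 1 (0.0580) or cisplatin 72 h replicate 2 (0.0537), and HK2 did not pass without cisplatin 24 h replicate 2 (log2 change -0.09, adjusted p = 0.191) or cisplatin 72 h replicate 2 (0.0981). PGM1 did not pass without cisplatin 24 h replicate 1 (0.111), cisplatin 72 h replicate 2 (0.138) or cisplatin 72 h replicate 3 (0.0807). ANKRD37 also missed the threshold with no count filter (edgeR adjusted p = 0.0560 in DMSO and 0.0768 in cisplatin), with DESeq2 (0.0528 and 0.0718) and, in cisplatin, when only the 6 libraries compared were fitted (edgeR adjusted p = 0.0553). Scaling by total counts alone also ended the cisplatin calls of HK2 and PGM1 and added PDK1 (log2 change 0.27, adjusted p = 0.0406).

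**Figure D3:**
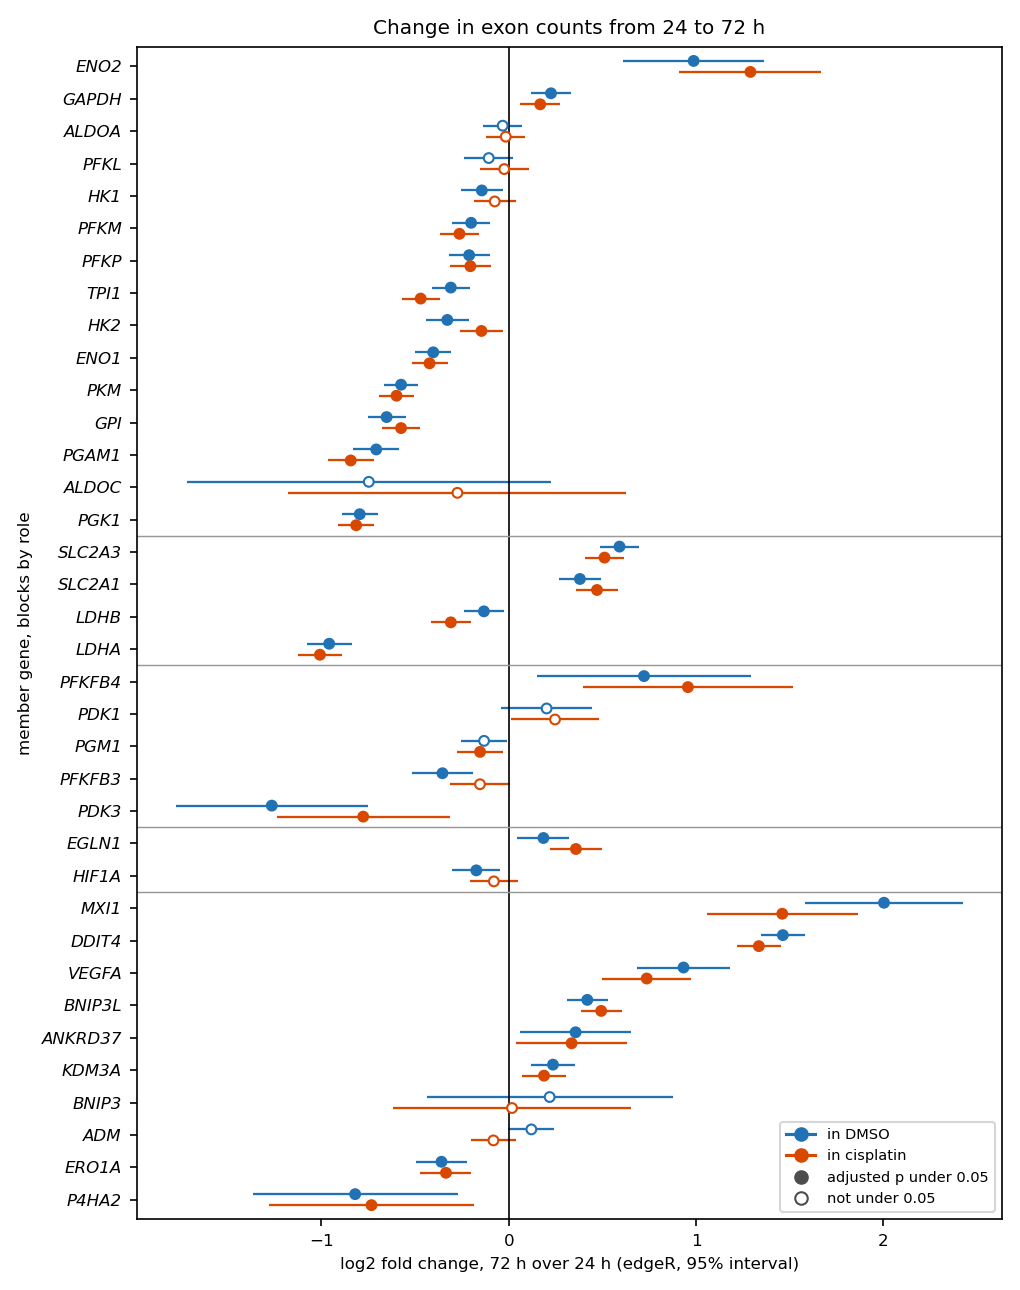
The log2 change of exon counts from 24 h to 72 h (horizontal axis) is given with its 95% interval for each of the 36 tested members (vertical axis, blocks by role) in DMSO and in cisplatin, and filled points passed an adjusted p of 0.05. The 2 treatments lie close for most members, with MXI1 and DDIT4 farthest to the right and LDHA and PDK3 farthest to the left.

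Isoenzymes of one step were also compared within each library, where scaling cancels. The log2 ratio of LDHB to LDHA, the subunits whose mix sets the lactate dehydrogenase form, went from 2.43 ± 0.08 (SD, n = 3) in DMSO 24 h to 3.26 ± 0.07 in DMSO 72 h, and from 2.46 ± 0.07 to 3.16 ± 0.07 in cisplatin. This ratio of CPM, which is not per length, was higher in every 72 h library than in every 24 h library. ENO2 against ENO1 had a log2 ratio of -10.1 ± 0.21 in DMSO 24 h and -8.72 ± 0.26 in DMSO 72 h and of -10.4 ± 0.35 and -8.65 ± 0.15 in cisplatin. PFKFB4 against PFKFB3 moved by 1.26 in DMSO and 1.09 in cisplatin, and PDK3 against PDK1 by -1.47 and -0.97 on the same scale, while HK2 against HK1 moved by -0.18 and -0.07 and SLC2A3 against SLC2A1 by 0.21 and 0.04. With 3 libraries against 3 the two-sided exact permutation test cannot give less than p = 0.1, which 18 of the 44 comparisons of 11 pairs reached (Benjamini-Hochberg adjusted 0.244), so none of these ratios passed that test. Over time in both treatments it was reached by LDHB/LDHA, ENO2/ENO1, PFKFB4/PFKFB3, PDK3/PDK1 and PFKP/PFKL.

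Other genes of the same pathways are set beside the shares of all genes given above (32.6% higher and 32.5% lower in DMSO, 32% and 31.5% in cisplatin). Of 43 further glycolysis and pyruvate genes, 41 were in the table and 27 were tested, and 8 were higher and 13 lower at 72 h in DMSO (median log2 change -0.12) and 10 higher and 11 lower in cisplatin (median -0.06). Of 46 further HIF pathway and hypoxia genes, 42 were in the table and 31 were tested, with 15 higher and 9 lower in DMSO (median 0.19) and 16 higher and 9 lower in cisplatin (median 0.24). Among the latter, CITED2, a HIF-induced protein that competes with HIF for its coactivator, went from 87.9 ± 5.64 to 220.0 ± 2.43 CPM in DMSO (SD, n = 3, log2 change 1.32 ± 0.06 SE, edgeR adjusted p = 4.36e-15). The lipase inhibitor ANGPTL4 (1.21 and 1.203 in DMSO and cisplatin) and the clock repressor BHLHE40 (1.17 and 1.103) followed. The largest falls were those of TFRC, the transferrin receptor, from 646 ± 60.5 to 149 ± 2.44 CPM in DMSO (log2 change -2.12 ± 0.07 SE, edgeR adjusted p = 1.13e-17), and of EPAS1, the other main HIF alpha subunit, from 194 ± 11.04 to 68.4 ± 2.304 CPM (-1.501 ± 0.06 SE, adjusted p = 2.30e-16), with JMJD6 next at -0.78. In cisplatin these 3 had log2 changes of -1.92, -1.32 and -0.999. Of the metabolic genes HKDC1, a hexokinase-like gene (2.62 and 2.47), LDHD (1.098 and 1.16) and ENO3 in DMSO (0.97) led the rises, with PFKFB1 (3.00, from 0 to 36 raw counts) first in cisplatin. GYS1, glycogen synthase (-0.84 and -0.68), DLAT, a subunit of pyruvate dehydrogenase (-0.82 and -0.77), and PGAM4 (-0.78 in each) led the falls. PGAM4 is a near-identical copy of PGAM1, so the counts of both are uncertain. HKDC1 had 2 to 57 raw counts per library and was at 0.193 CPM in DMSO 24 h and 0.141 CPM in cisplatin 24 h. PFKFB1 was at 0.0586 CPM in cisplatin 24 h. Both passed the count filter through their 72 h libraries, so the size and the rank of their rises are uncertain.

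The second comparison asked what cisplatin did to these genes at each time. No member passed the test at 24 h or at 72 h. At 24 h, 0 of 36 members were called beside 0% of all genes tested, and 0 members had an unadjusted p under 0.05 beside 2.49% of all genes, 260 in number (edgeR quasi-likelihood test). Changes ran from -0.31 for P4HA2 to 0.27 for MXI1 on the log2 scale, with a median size of 0.03. The 3 cisplatin libraries lay on one side of the 3 DMSO libraries for 1 member, SLC2A3, beside 6.42% of all genes.

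At 72 h, 0 of 36 members were called beside 0.0287% of all genes, which is 3 genes. Leaving out 1 library moved that number over all genes to 72 without DMSO 72 h replicate 3, 9 without cisplatin 72 h replicate 2, 2 without DMSO 72 h replicate 2, 1 without cisplatin 72 h replicate 1 and 0 without cisplatin 72 h replicate 3, with 0 members called in each. An unadjusted p under 0.05 was found for 6 members beside 12.6% of all genes, 1311 in number. LDHB (log2 change -0.15), ADM (-0.13) and TPI1 (-0.12) were lower with cisplatin and GPI (0.10), HK2 (0.15) and PDK3 (0.51) higher, and the smallest edgeR adjusted p among all members was 0.263. LDHB was at 919 ± 27.4 CPM in DMSO and 831 ± 20.3 CPM in cisplatin at 72 h, HK2 at 188 ± 10.1 and 209 ± 5.99 CPM, and PDK3 at 1.12 ± 0.27 and 1.60 ± 0.27 CPM (SD, n = 3). The libraries of the 2 treatments did not overlap for 9 members beside 18.1% of all genes. DESeq2 also called 0 members at either time.

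The data bounded the effect of cisplatin for most members. At each time the 95% interval of the log2 change lay within ±0.5 for 30 of 36 members. For LDHA it ran from -0.12 to 0.12 at 24 h and from -0.17 to 0.07 at 72 h, and for HIF1A from -0.19 to 0.07 and from -0.09 to 0.16. For DDIT4 it ran from -0.09 to 0.14 and from -0.21 to 0.01. The wider intervals were those of low genes, P4HA2, ALDOC, PFKFB4, BNIP3 and MXI1 at both times, ENO2 at 24 h and PDK3 at 72 h, so a change of these could have been missed. VEGFA ran from -0.05 to 0.48 at 24 h and from -0.20 to 0.24 at 72 h.

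The difference between the cisplatin effects at 72 h and at 24 h was called for 0 of 36 members beside 0% of all genes, and 4 members (ADM, LDHB, TPI1 and HK2) had an unadjusted p under 0.05 beside 9.43% of all genes, 985 in number (edgeR). The interaction was -0.54 ± 0.29 SE on the log2 scale for MXI1, whose rise over time was 2.00 in DMSO and 1.46 in cisplatin, with an edgeR adjusted p of 0.562. Of the tested genes on the 2 further pathway lists, 0 were called with cisplatin at either time.

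**Figure D4:**
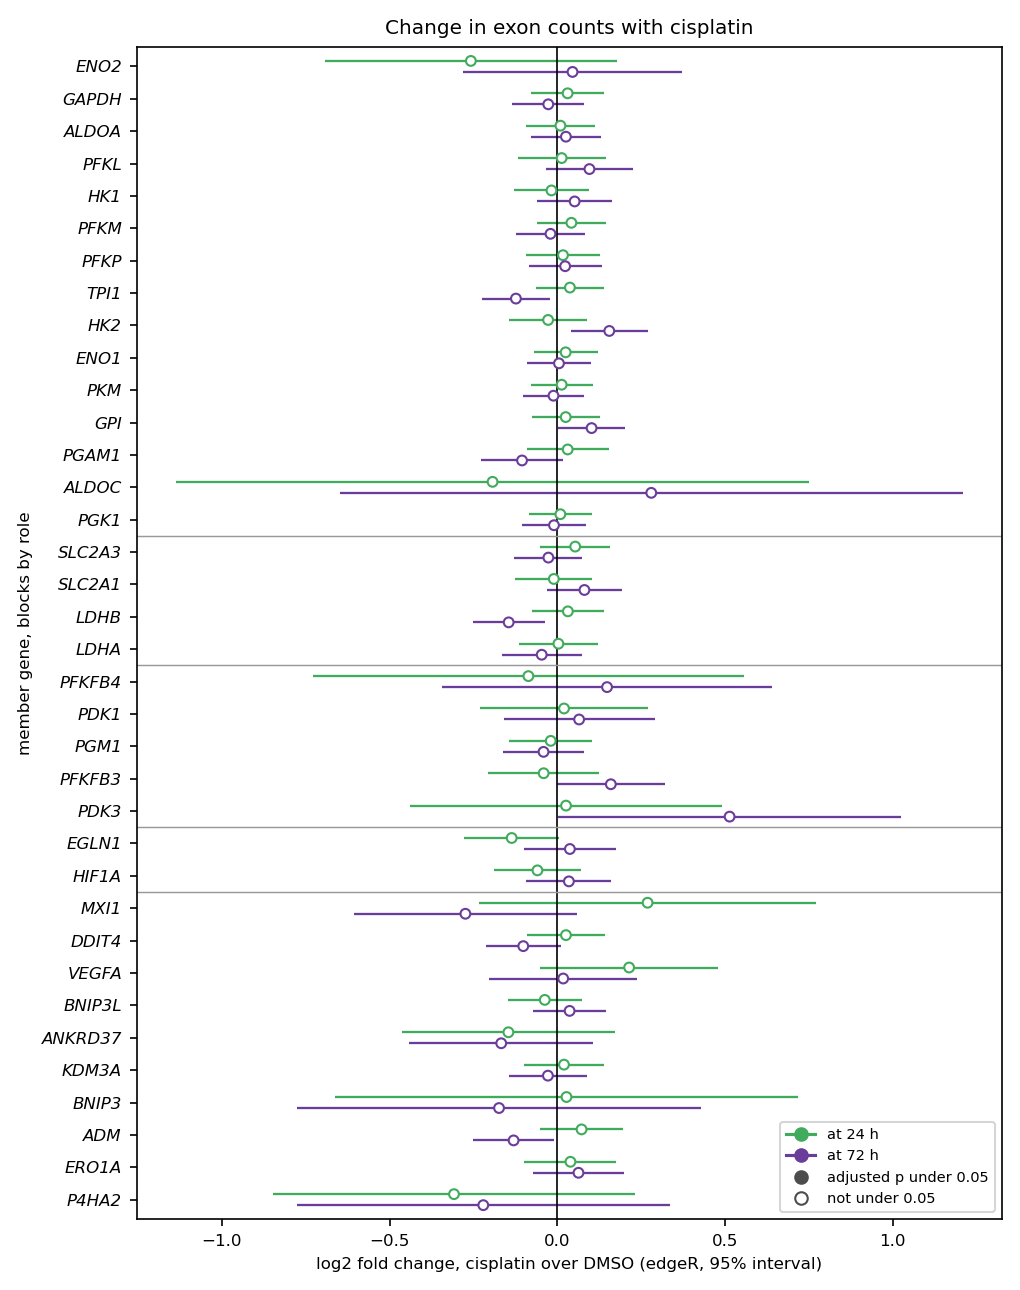
The log2 change of exon counts with cisplatin against DMSO (horizontal axis) is given with its 95% interval for the 36 tested members (vertical axis, blocks by role) at 24 h and at 72 h. Every point is open, since no member passed an adjusted p of 0.05, and the points farthest from 0 (PDK3, P4HA2, MXI1, ALDOC) carry wide intervals.

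Intron counts, usually read as a measure of unspliced transcripts, gave a second readout of the same libraries for 31 members that passed the filter. The bases counted as intron are not given in the sources used here, and with a newer annotation (GENCODE 44) no intron base was left for ADM and DDIT4, which still had intron counts. In that annotation VEGFA had 1873 intron bases and 14431 exon bases, yet every library held more intron than exon counts for it. Whether the intron counts of ADM, DDIT4, VEGFA and LDHA came from unspliced transcripts was not tested. Over time in DMSO 13 of 31 members were called, 3 higher and 10 lower, beside 33.4% of all genes (17.2% higher and 16.2% lower), and in cisplatin 14, with 5 higher and 9 lower, beside 31.8% (16.4% higher and 15.4% lower; edgeR, Benjamini-Hochberg adjustment over 9618 genes).

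LDHA, VEGFA, DDIT4 and MXI1, among the members with the largest exon changes, were called in introns in both treatments and in the same direction. PDK3 and P4HA2 were not in the intron test, and PGK1 (log2 change -0.35 in DMSO and -0.14 in cisplatin, edgeR adjusted p = 0.0957 and 0.527) and PFKFB4 (-0.25 and 0.23, adjusted p = 0.717 and 0.733) passed it in neither treatment. LDHA intron counts were 1479, 1640 and 1459 CPM in DMSO at 24 h and 835, 876 and 807 CPM at 72 h, scaled to intron totals. In cisplatin they were 1442, 1399 and 1569 CPM at 24 h and 818, 767 and 734 CPM at 72 h. The LDHA fall in introns was -0.86 ± 0.08 SE in DMSO (edgeR adjusted p = 8.14e-13) and -0.93 ± 0.08 in cisplatin (adjusted p = 8.39e-14), without overlap. VEGFA intron counts rose from 140.4, 126 and 122 CPM to 283, 289 and 269 CPM in DMSO and from 156, 163 and 132 CPM to 276, 308 and 300 CPM in cisplatin. That was 1.11 ± 0.11 in DMSO (edgeR adjusted p = 1.43e-12) and 0.96 ± 0.10 in cisplatin (adjusted p = 5.62e-11), near its exon rise. DDIT4 rose by 1.02 ± 0.19 (edgeR adjusted p = 1.98e-05) and 1.18 ± 0.19 (adjusted p = 9.43e-07), and MXI1, with 7 to 77 raw intron counts, by 1.57 ± 0.33 (adjusted p = 0.000116) and 1.08 ± 0.32 (adjusted p = 0.00642). The MXI1 intron call in cisplatin had an adjusted p of 0.0517 without cisplatin 24 h replicate 1. ENO2 introns, with 5 to 40 raw counts, were called in cisplatin alone (1.26 ± 0.46, adjusted p = 0.0298), and that call was lost without cisplatin 24 h replicate 2 (0.173) or cisplatin 72 h replicate 2 (0.0814). It was also lost with DESeq2.

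Of the members tested in both readouts, 11 were called in both over time in DMSO, 10 of them in the same direction, and 11 in cisplatin, 9 of them in the same direction. The matching shares over all genes were not counted, so these numbers cannot be read as particular to the members. Of all genes tested, 65.1% were called in exons and 33.4% in introns in DMSO, and 63.5% and 31.8% in cisplatin. GAPDH went against itself in both treatments. Its intron counts went from 426, 409 and 359 CPM to 276, 248 and 359 CPM in DMSO and from 330, 416 and 387 CPM to 233, 273 and 239 CPM in cisplatin, with DMSO 72 h replicate 3 just below the 24 h range. The GAPDH intron change was -0.43 ± 0.11 in DMSO (edgeR adjusted p = 0.00134) and -0.60 ± 0.11 in cisplatin (adjusted p = 1.05e-05), while its exon counts rose. GAPDH has 65 pseudogenes named after it in the annotation, so reads shared with them are uncertain. The same holds for BNIP3, with 44 such pseudogenes, and for PGAM1, with 13. HK2 in cisplatin was higher in introns (0.42, adjusted p = 0.0391) and lower in exons. The intron call failed in 5 of the 6 fits that left out 1 library, with adjusted p of 0.0545 without cisplatin 24 h replicate 2, 0.147 without cisplatin 24 h replicate 3, 0.152 without cisplatin 72 h replicate 1, 0.0518 without cisplatin 72 h replicate 2 and 0.0537 without cisplatin 72 h replicate 3. It also failed with DESeq2 and with total count scaling.

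ADM, which encodes the vasodilator peptide adrenomedullin, was flat in exons and lower in introns. Its intron counts went from 44.5, 40.7 and 30.5 CPM to 22.9, 19.3 and 24.7 CPM in DMSO and from 41.2, 37.3 and 35.6 CPM to 28.2, 24.5 and 25.6 CPM in cisplatin, without overlap. ADM fell in introns by -0.79 ± 0.21 in DMSO (edgeR adjusted p = 0.0025) and by -0.55 ± 0.20 in cisplatin (adjusted p = 0.0277), from 35 to 114 raw counts. The ADM call in cisplatin was lost without cisplatin 24 h replicate 1 (0.0931), cisplatin 24 h replicate 2 (0.0564), cisplatin 72 h replicate 2 (0.104) or cisplatin 72 h replicate 3 (0.0626). The PGAM1 intron call in DMSO (-0.68, adjusted p = 0.0463) was lost when any 1 of the 6 libraries was left out, with adjusted p from 0.0526 to 0.159. It was also lost with DESeq2, with no count filter and when only the 6 libraries compared were fitted. With cisplatin 0 of 31 members were called in introns at either time, beside 0.0208% of all genes at 24 h and 0.0416% at 72 h, and 3 members had an unadjusted p under 0.05 at each time, beside 5% and 6.46% of all genes (481 and 621, edgeR). The difference between the cisplatin effects at the 2 times was called in introns for 0 of 31 members beside 0.0416% of all genes, and 1 member, HK2, had an unadjusted p under 0.05 beside 5.71% of all genes (549, edgeR). The number called over time in cisplatin was 9 without cisplatin 24 h replicate 2.

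**Figure D5:**
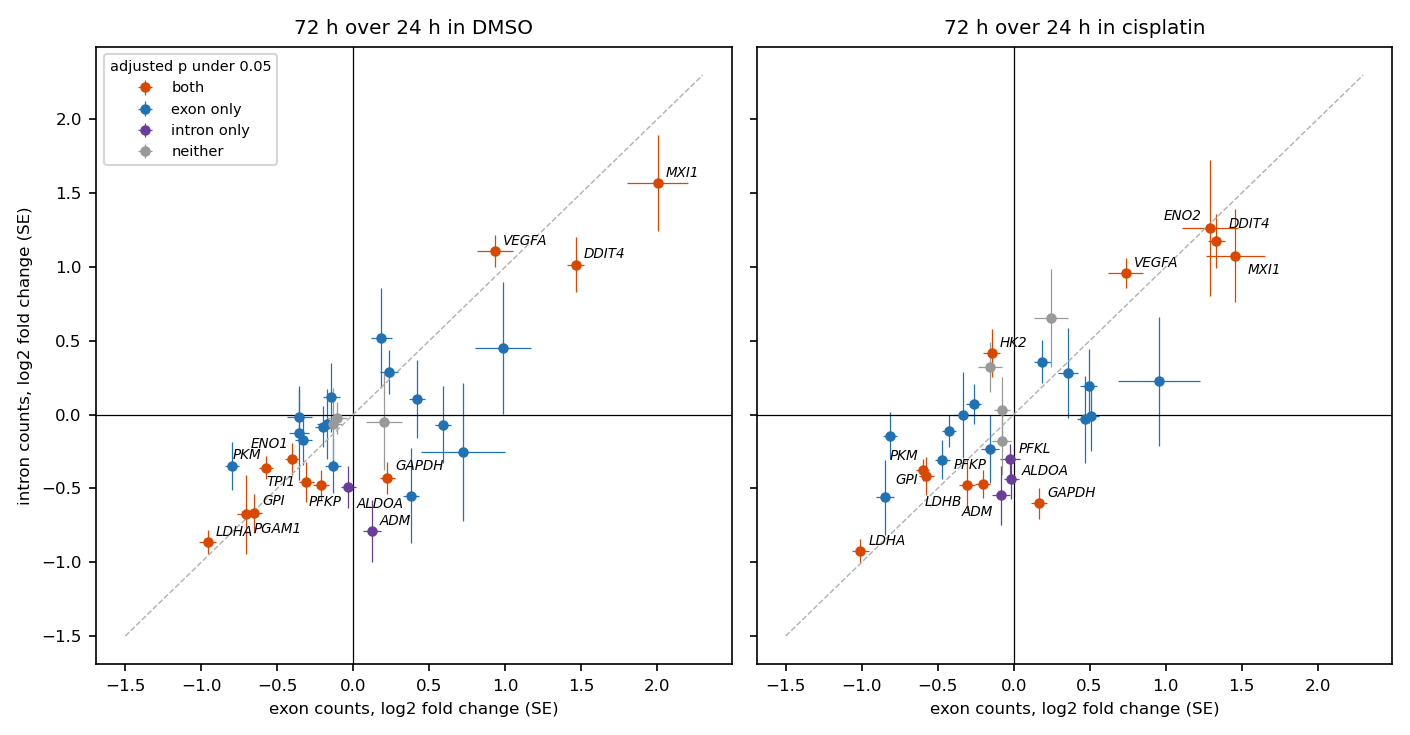
The log2 change from 24 h to 72 h in intron counts (vertical axis) is plotted against that in exon counts (horizontal axis) with SE bars, for DMSO at left and cisplatin at right, and colour tells in which readout the adjusted p was under 0.05. LDHA, VEGFA, DDIT4 and MXI1 lie near the dashed line of equal change, while GAPDH and ADM lie below it.

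The last readout was the ratio of exon to intron counts of a gene within a library, tested by logistic regression on both counts. This test takes each fragment as independent, so its error leaves out the spread between libraries, and a quasi-binomial test that adds that spread called 0 members in all 4 comparisons (beside 0, 0, 64 and 97 genes in all). The values below are therefore those of these libraries. Over time in DMSO 10 of 33 members were called, 8 higher and 2 lower, beside 33.7% of all genes (22.5% higher and 11.1% lower), and in cisplatin 15 of 33, with 9 higher and 6 lower, beside 40.6% (29% higher and 11.6% lower). An edgeR test of the same ratio called 5 of 32 in each, beside 11.5% of all genes in DMSO (8.08% higher and 3.37% lower) and 12% in cisplatin (8.39% higher and 3.57% lower). These were PFKP, ALDOA, GAPDH, SLC2A1 and ADM higher in DMSO, and ALDOA, GAPDH and ADM higher with HK2 and PGK1 lower in cisplatin.

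The ADM ratio was 20.9, 26.3 and 28.1 in DMSO at 24 h and 48.0, 57.0 and 43.04 at 72 h, and in cisplatin 23.4, 23.8 and 28.2 at 24 h and 33.4, 40.2 and 34.6 at 72 h. Every 72 h library was above every 24 h library. Its log2 change was 0.96 ± 0.16 SE in DMSO (logistic adjusted p = 1.78e-08) and 0.57 ± 0.13 in cisplatin (adjusted p = 0.000107). The GAPDH ratio went from 156, 174 and 156 to 291, 322 and 216 in DMSO and from 178, 145 and 179 to 305, 284 and 298 in cisplatin, again without overlap. GAPDH rose by 0.67 ± 0.05 (logistic adjusted p = 1.09e-46) and 0.87 ± 0.04 (adjusted p = 3.74e-92). SLC2A1 went from 93.7, 105 and 112 to 240.1, 285 and 154 in DMSO (0.96, adjusted p = 0.000758) and from 89.5, 98.6 and 117 to 129, 160 and 166 in cisplatin (0.59, adjusted p = 0.0146). Its DMSO ratios rested on only 29, 28 and 16 raw intron counts at 24 h and 14, 12 and 36 at 72 h. The SLC2A1 call in cisplatin was lost without cisplatin 24 h replicate 1 (0.0749), cisplatin 24 h replicate 2 (0.0759) or cisplatin 72 h replicate 2 (0.0801). PGK1 had lower ratios at 72 h, from 212, 246 and 210 to 175, 142 and 205 in DMSO (-0.36, adjusted p = 0.00298) and from 200, 214 and 337 to 163, 177 and 127 in cisplatin (-0.52, adjusted p = 2.69e-07). The DMSO call of PGK1 was lost without DMSO 24 h replicate 2 (0.0632) or DMSO 72 h replicate 2 (-0.22, 0.159). Of the other leading changes, PKM had -0.13 in DMSO (adjusted p = 2.37e-17) and HK2 -0.48 in cisplatin (adjusted p = 3.11e-05). PFKFB4 had 1.06 in DMSO (adjusted p = 0.0287), lost without DMSO 24 h replicate 1 (0.171), DMSO 24 h replicate 3 (0.0896), DMSO 72 h replicate 1 (0.0584) or DMSO 72 h replicate 3 (0.222). In cisplatin SLC2A3 had 0.65 (adjusted p = 0.000187), which was 0.25 without cisplatin 24 h replicate 2 (0.404), and PFKFB3 had -0.38 (adjusted p = 0.00449), lost without cisplatin 24 h replicate 3 (0.0914). The LDHA ratio stayed between 1.58 and 1.81 in every library, and its change passed in neither treatment.

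With cisplatin 4 of 34 members were called at 24 h, all lower, beside 11.5% of all genes (10.7% lower and 0.765% higher), and 4 of 33 at 72 h, 3 lower and 1 higher, beside 11.4% (9.7% lower and 1.73% higher). At 24 h they were PFKL (-0.36), ALDOA (-0.27), ENO1 (-0.15) and PFKP (-0.14), and the libraries of the 2 treatments overlapped for each. The share of all genes called also rested on single libraries, being 2.53% (245 genes) without cisplatin 24 h replicate 2 and 5.18% (503 genes) without DMSO 24 h replicate 2, and at 72 h the number went from 1144 to 729 genes without DMSO 72 h replicate 1. Without cisplatin 24 h replicate 2, 0 members were called and the changes were -0.19 for PFKL, 0.07 for ALDOA, 0.04 for ENO1 and -0.01 for PFKP. Without DMSO 24 h replicate 1, ALDOA (-0.18, adjusted p = 0.213), ENO1 (-0.07, 0.488) and PFKP (-0.14, 0.0786) were lost, and PFKP was also lost without DMSO 24 h replicate 2 (-0.08, 0.395). Cisplatin 24 h replicate 2 had 7.15% of its counts in introns. At 72 h they were PFKFB3 (-0.33), ENO1 (-0.31), PKM (-0.06) and GAPDH (0.18). GAPDH was at -0.06 without DMSO 72 h replicate 3, PKM at -0.03 (adjusted p = 0.273) without DMSO 72 h replicate 2, and PFKFB3 did not pass without DMSO 72 h replicate 1 (-0.21, 0.309), DMSO 72 h replicate 2 (0.101), cisplatin 72 h replicate 2 (0.157) or cisplatin 72 h replicate 3 (0.0584). ENO1 at 72 h was the one call that passed whichever library was left out, with 142, 135 and 131 exon counts per intron count in DMSO and 99.8, 112 and 120 in cisplatin, and edgeR called 0 members at either time.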

How the data were processed

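The authors trimmed paired reads (FastQC 0.11.8, Trim Galore 0.6.0), aligned them to GRCh38 with HISAT2 2.1.0 and counted them with HTSeq-count over exons (intersection-strict) and introns (union) made from Ensembl release 98. The deposited values are whole-number counts per gene and library, neither normalized nor pooled. The strand setting and the bases counted are not given in the sources used here. Groups came from the sample labels, and all 24 columns were used. The genes and lists were chosen with earlier results of these data known.

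Exon and intron counts were each fitted in 1 model over the 12 libraries with edgeR 4.0.16 (quasi-likelihood test, TMM scaling, filterByExpr, Benjamini-Hochberg adjustment over all genes tested, limma 3.58.1, R 4.3.3). The exon to intron ratio was tested by logistic regression over the 6 libraries compared, for genes with at least 1 count of each kind in every library. Isoenzyme ratios were tested by a two-sided exact permutation test (scipy 1.17.1). The edgeR tests were checked on simulated counts, for the ratio with the same spread set for all genes. The logistic test was checked on simulated independent fragments, so that check did not cover the spread between libraries. Lengths and positions were from GENCODE 44 on GRCh38. Intervals are 95% intervals. Values for every library are given for at most 5 members that rose and 5 that fell past the threshold in exons and 3 each way in introns and in the ratio, and at most 3 each way from the further lists. Alternatives were DESeq2 1.42.0, other scalings, no count filter, a fit to the 6 libraries compared, a replicate block, a minimum of 10 counts, edgeR and quasi-binomial tests of the ratio, longest transcript length, and leaving out each library.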

Additional observations from a re-analysis of the deposited data

How the results depend on the processing

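The low members (MXI1, ENO2, PFKFB4, PDK3, P4HA2, ALDOC and BNIP3) had wide intervals for their cisplatin effects at 24 h, at 72 h or at both. How far depth or the spread between libraries set these widths was not tested. The intron readout held at most 7.17% of a library's counts. Of 56 calls over time in exon counts, 56 stayed past the threshold with RLE size factors and with the replicate block, 54 with DESeq2, with no count filter and with total count scaling, 55 when only the 6 libraries compared were fitted, and 300 of 336 fits that left out 1 library kept theirs, with 0 reversed. Of 27 calls over time in intron counts, 27 stayed with RLE size factors and with the replicate block, and 23 with DESeq2. In each of the fits with no count filter, with total count scaling and to the 6 libraries compared 26 stayed. Leaving out 1 library kept 131 of 162, with 0 reversed. Leaving out 1 library gave 25 to 28 members called over time in DMSO and 23 to 27 in cisplatin for exons, 11 to 12 and 9 to 13 for introns, and 9 to 13 and 12 to 14 for the ratio. With cisplatin it gave 0 in exons, introns and the exon interaction, and for the ratio 0 to 5 members at 24 h and 2 to 6 at 72 h.

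The ratio depended most on the test. The quasi-binomial test called 0 members in each of the 4 comparisons, and edgeR called 0 at 24 h and 0 at 72 h with cisplatin and 5 in each comparison over time. With cisplatin at 24 h, leaving out 1 library gave ratio changes from -0.409 to 0.0693 for ALDOA and from -0.217 to 0.0405 for ENO1, and at 72 h from -0.0644 to 0.294 for GAPDH. The sign turned without cisplatin 24 h replicate 2 for ALDOA and ENO1 and without DMSO 72 h replicate 3 for GAPDH. The cause was not tested. The median level of the 40 members in DMSO 24 h was 17.5 CPM per kb with all exon bases and 25.9 with the longest transcript.

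Over all genes, exon calls with cisplatin at 72 h went from 3 to 91 with DESeq2 and 154 with no count filter, at 24 h from 0 to 7 with no filter, and for the interaction from 0 to 20 with no filter and 2 with DESeq2, with 0 members among them in each case. Leaving out 1 library gave 0 to 72 genes at 72 h and 0 to 1 at 24 h in exons, and 3 to 9 and 0 to 2 in introns. Intron calls at 72 h went from 4 to 26 when only the 6 libraries compared were fitted to 19 with no filter and to 2 with DESeq2, and at 24 h from 2 to 5 with no filter and 0 with DESeq2 or the replicate block, again with 0 members.

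Same-numbered libraries did not deviate together throughout (correlations of their deviations in exon counts from -0.11 to 0.10), so the numbers were not taken as pairs. Each library correlated best with its own number in exon counts in the cisplatin comparison over time and in intron counts in the comparison of cisplatin with DMSO at 72 h, and in no other comparison of either. With a replicate block 0, 0, 29 and 27 members were called in exons (cisplatin at 24 h and 72 h, time in DMSO and in cisplatin), 0, 0, 13 and 14 in introns, and 4, 6, 12 and 16 in the ratio, where ENO1 with cisplatin at 24 h was lost (-0.13, adjusted p = 0.074).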
